A study of Mus musculus with 8 samples.

Results

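The genes described here are 5 enzymes of sugar use in skeletal muscle: the hexokinase Hk2, the phosphofructokinase isoforms Pfkp (platelet type) and Pfkm (muscle type), the catalytic subunit of muscle phosphorylase kinase Phkg1, and the glyceraldehyde phosphate dehydrogenase Gapdh. Each was found by its symbol in the probe annotation and has 1 probe, so they are 5 of the 6370 genes that the annotation names on an array of 10500 probes. They were chosen with their response to stimulation already known. The changes of these 5 genes between the muscles are therefore given as a description, without p-values. Which of them passed a fit over all probes is given beside the share of all probes that passed, and supports nothing.

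Samples were extensor digitorum longus (EDL) muscles of 4 Swiss Webster mice, an outbred stock, numbered 183, 197, 438 and 440 and labelled male on 7 of the 8 arrays. The sciatic nerve of 1 leg was stimulated for 4 h, which made its EDL contract, and the contralateral EDL, left unstimulated, was the control of the same animal. Both groups thus come from animals that underwent stimulation, and no unstimulated animal was analysed here. RNA of whole muscle was measured on CodeLink arrays, 1 array per muscle. In such bulk RNA, more cells of a type and more RNA per cell cannot be told apart.

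Glycolysis turns glucose, or the glucose units of stored glycogen, into pyruvate and so supplies ATP to a fast muscle such as the EDL during hard work. Hexokinase traps incoming glucose by adding a phosphate, and in adult muscle Hk2 is the main, insulin- and exercise-responsive form. Phosphofructokinase carries out the committed step and is the chief control point of the pathway. It works as a tetramer of muscle (Pfkm), liver (Pfkl) and platelet (Pfkp) subunits, which differ in their response to regulatory metabolites, and adult muscle fibres rely on the muscle subunit. Phosphorylase kinase, whose catalytic subunit in muscle is Phkg1, switches on glycogen phosphorylase when calcium rises. Gapdh catalyses a later step and is widely used as a reference gene.

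Promoter windows of GRCm38.p6, from RefSeq, are shown for the 2 genes that were higher in stimulated muscle and, beside them, for Phkg1, which was lower. Each runs from 250 bases before to 50 bases after the annotated start, 5′ to 3′ along the gene. Capitals mark matches, on either strand, to any of 7 motifs. The letters TGACG are the core of a cAMP response element, which factors of the CREB family bind. The hypoxia response core, bound by HIF factors, reads ACGTG in the search. A GC box, bound by Sp factors, was searched as GGGCGG. The TATA box was searched as TATAAA and the NF-Y site as CCAAT. For the monomer site of the Nr4a receptors the letters were AAAGGTCA. An E-box, bound by basic helix-loop-helix factors, was searched as CANNTG.
Hk2, chr6:82774405-82774704, minus strand: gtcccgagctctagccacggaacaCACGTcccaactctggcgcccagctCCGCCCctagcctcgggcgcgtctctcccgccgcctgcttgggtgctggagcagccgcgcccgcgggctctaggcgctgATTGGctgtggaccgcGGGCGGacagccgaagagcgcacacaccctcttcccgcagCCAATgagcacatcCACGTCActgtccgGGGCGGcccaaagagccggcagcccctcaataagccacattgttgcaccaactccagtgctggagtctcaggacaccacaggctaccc
Pfkp, chr13:6648722-6649021, minus strand: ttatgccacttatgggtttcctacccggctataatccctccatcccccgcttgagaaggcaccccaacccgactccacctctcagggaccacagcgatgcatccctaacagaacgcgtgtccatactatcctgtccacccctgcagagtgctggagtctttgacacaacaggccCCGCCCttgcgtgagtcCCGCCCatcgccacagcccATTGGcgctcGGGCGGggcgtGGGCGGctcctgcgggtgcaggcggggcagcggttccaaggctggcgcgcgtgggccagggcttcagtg
Phkg1, chr5:129879039-129879338, minus strand: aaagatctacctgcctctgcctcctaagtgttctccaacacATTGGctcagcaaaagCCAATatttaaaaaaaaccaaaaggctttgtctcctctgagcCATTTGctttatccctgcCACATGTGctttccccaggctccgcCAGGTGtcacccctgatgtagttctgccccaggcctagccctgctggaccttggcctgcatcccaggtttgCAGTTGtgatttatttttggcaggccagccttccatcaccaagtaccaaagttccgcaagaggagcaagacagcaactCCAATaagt

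The Hk2 window held a match to the cAMP response core at -50 to -46 from the start. It overlapped a match to the hypoxia core at -52 to -48, and a further hypoxia core lay at -226 to -222. The cAMP response core occurs in 20.8% and the hypoxia core in 19.6% of the 32851 windows in the reference. In addition the Hk2 window had 3 GC boxes and 2 CCAAT boxes. At least 1 GC box was found in 35.7% of windows and at least 1 CCAAT box in 37.4%. The Pfkp window had 4 GC boxes and 1 CCAAT box and none of the other letters searched. Both windows were rich in G and C, at 67.3% for Hk2 and 64.7% for Pfkp, where the median window had 52.7%. The Phkg1 window was at 50% G and C. It held 5 E-boxes, a motif present in 72.3% of windows, and 3 CCAAT boxes.

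The annotation gives Pfkm 4 starts, and which of them these muscles used was not measured, so no Pfkm window is printed. Across its windows there were 4 matches to the hypoxia core and 5 E-boxes, 2 of the hypoxia cores overlapping each other on opposite strands, within an E-box. The Pfkm windows ran from 36.7% to 59% G and C. Gapdh had 1 hypoxia core at 43 to 47 and no other match, in a window at 56.7% G and C. Windows of the genes that were lower thus lay on both sides of the median of 52.7%. TATAAA (13.6% of windows) and AAAGGTCA (1.51% of windows) were found in no window of the 5 genes. These are matches of letters only, and binding was not measured.

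**Figure D1:**
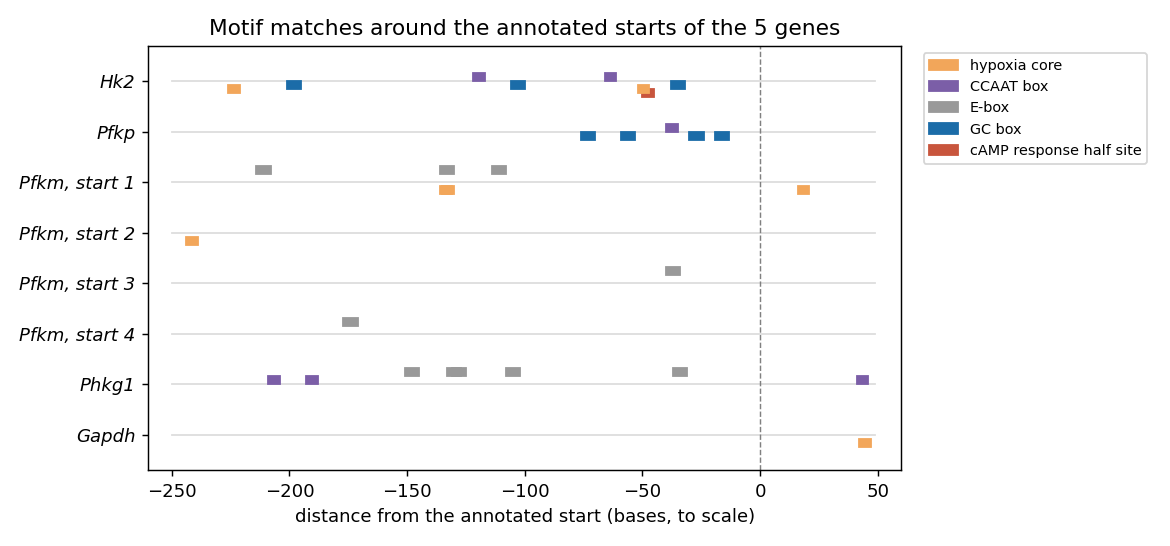
Position of each motif match in the windows around the annotated starts of the 5 genes, with distance from the start in bases on the x axis and 1 line per start (Pfkm has 4). GC boxes lie on the Hk2 and Pfkp lines, CCAAT boxes on the Hk2, Pfkp and Phkg1 lines, and E-boxes on the Phkg1 and Pfkm lines. Hypoxia cores lie on the Hk2, Pfkm and Gapdh lines, and the cAMP response core on the Hk2 line.

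Array medians ran from 0.90 to 0.94 intensity units, and the values were used as the authors normalized them. All 5 probes were far above the floor of 0.0937 intensity units set for low values, and 4 of the 5 were among the brightest 220 of the 10406 probes tested. The labelled tissue was checked against fast fibre markers, which were bright. The calcium buffer parvalbumin (Pvalb) averaged 825 in stimulated and 1162 in contralateral muscle, and the fast troponin Tnni2 averaged 1287 in stimulated and 1837 in contralateral muscle. The arrays of mice 183 and 197 stood apart from those of mice 438 and 440. Deviations from the group means correlated at -0.60 to -0.30 between stimulated and contralateral muscles of mice from different sets, and at 0.18 to 0.45 between different mice of the same set. The labels give no batch, and what separates the sets was not tested.

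Hk2 was higher in the stimulated muscle of every mouse, by 2.04-fold on average. Its intensity was 384, 294, 329 and 223 in stimulated muscle of mice 183, 197, 438 and 440, against 190, 168, 132 and 113 in their contralateral muscles. The lowest stimulated muscle, that of mouse 440, was above the highest contralateral muscle, that of mouse 183, so the groups did not overlap. Within mice the log2 changes were 1.01, 0.81, 1.31 and 0.98, a mean of 1.03 ± 0.21 (SD, n = 4 mice). The largest was in mouse 438. Contralateral Hk2 was higher in mice 183 and 197 than in mice 438 and 440, and this order of the sets did not carry over fully to the stimulated muscles, where mouse 438 lay above mouse 197.

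Pfkp, the subunit named for platelets and made by many cell types, had the largest change of the 5 genes at 2.31-fold. Stimulated muscles gave 14.4, 13.3, 22.6 and 40.6 intensity units in mice 183, 197, 438 and 440, and contralateral muscles 6.98, 5.70, 10.3 and 15.0. The groups overlapped, since the contralateral muscle of mouse 440 exceeded the stimulated muscles of mice 183 and 197. Within each mouse the stimulated side was nonetheless the higher one, with log2 changes of 1.04, 1.23, 1.13 and 1.44 (mean 1.21 ± 0.17, SD, n = 4). The spread between animals (SD 0.74 in stimulated and 0.62 in contralateral muscle on the log2 scale) was larger than that of the changes. In both groups mouse 440 was highest and mouse 197 lowest.

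Pfkm, the subunit of adult fibres, was lower in the stimulated muscle of all 4 mice, by 1.41-fold on average. It stood at 407, 419, 541 and 359 intensity units in stimulated muscle of mice 183, 197, 438 and 440, against 550, 564, 660 and 639 in contralateral muscle. No stimulated value reached the lowest contralateral one, that of mouse 183, though the stimulated muscle of mouse 438 came close. The log2 changes were -0.43, -0.43, -0.29 and -0.83 (mean -0.50 ± 0.23, SD, n = 4), with mouse 440 well below the other 3. Other genes of fast fibres had values of similar size beside it. All 8 tested fast fibre markers had negative log2 changes, with a median of -0.49 and a range of -0.63 to -0.25, and 0 passed in limma (6 at unadjusted p under 0.05). Their summed intensity was 4920 to 8933 in stimulated and 7305 to 15167 in contralateral muscle. The 4 tested slow fibre markers had positive mean changes, at a median of 0.85, and 0 passed (3 at unadjusted p under 0.05). In mouse 440, however, Tnni1 was at -0.64 and Tnnc1 at -0.007, while Tnnt1 and Tpm3 were both at 0.24. The fast marker values are on the deposited scale. Like Pfkm, these markers lie among the brightest 1041 probes, whose median log2 change was -0.17. The part of fibre type genes in the Pfkm value was not tested, nor was that of scaling in the fast marker values.

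**Figure D2:**
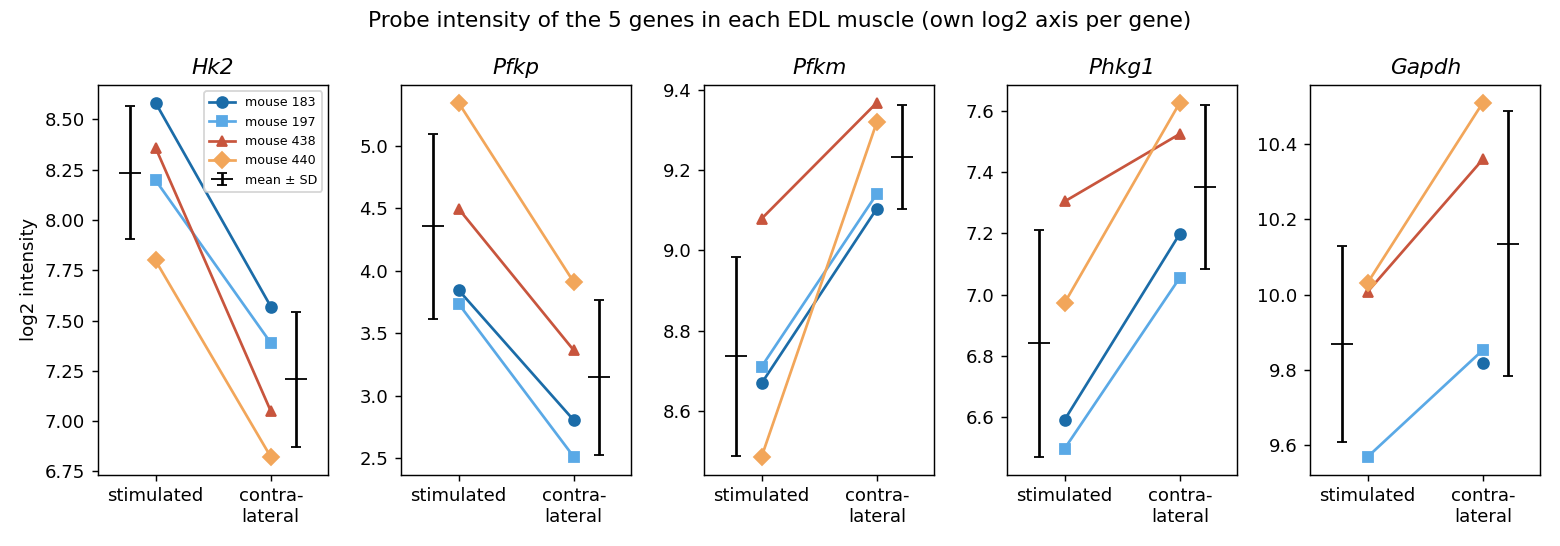
Log2 intensity of each of the 5 genes in stimulated (left) and contralateral (right) EDL, 1 line per mouse, with the mean and SD of each group as black bars and a separate log2 axis per gene. Hk2 and Pfkp slope down towards the contralateral side in all 4 mice, and Pfkm, Phkg1 and Gapdh slope up in every mouse with both values.

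The phosphofructokinase subunits thus had changes of opposite sign within each muscle pair. Subtracting the Pfkm change from the Pfkp change left 1.48, 1.66, 1.42 and 2.27 on the log2 scale in mice 183, 197, 438 and 440. Their mean of 1.71 ± 0.39 (SD, n = 4) is a 3.26-fold shift in the ratio of the probes, and it was largest in mouse 440, where Pfkp had its largest and Pfkm its most negative change. The size of this shift depended on the scaling. Quantile normalization put Pfkp at 1.23 and Pfkm at -0.18, and cyclic loess put them at 1.29 and -0.27. A shift of this ratio does not give the share of each subunit, because intensities of different probes are not on a common scale. The third subunit, Pfkl, named after its values were seen, had a log2 change of 0.08 in the limma fit (95% interval -0.37 to 0.54), with single mice between -0.09 and 0.31. Pfkp exceeded Pfkl by 0.82 to 1.52 in all 4 mice, and Pfkl exceeded Pfkm by 0.44 to 0.74. The Pfkl probe was dim, at means of 1.66 intensity units in stimulated and 1.56 in contralateral muscle. After quantile normalization Pfkl was at 0.01 and Pfkm at -0.18, so the gap between them depended on the scaling.

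Phkg1 was lower in stimulated muscle in all 4 mice, by 1.43-fold on average. Its intensities were 96.3, 90.2, 158 and 126 in stimulated muscle of mice 183, 197, 438 and 440, and 147, 133, 184 and 198 in contralateral muscle. Groups overlapped through mouse 438, whose stimulated muscle lay above the contralateral muscles of mice 183 and 197. The log2 changes were -0.61, -0.56, -0.22 and -0.66 (mean -0.51 ± 0.20, SD, n = 4), so mouse 438 had the change nearest to 0, as it did for Pfkm.

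Gapdh had no value on the stimulated array of mouse 183, and its change rests on 3 mice. Stimulated muscle gave 760, 1029 and 1046 intensity units in mice 197, 438 and 440, against 925, 1313 and 1457 in their contralateral muscles and 902 in the contralateral muscle of mouse 183. The groups overlapped, and within mice the log2 changes were -0.28, -0.35 and -0.48 (mean -0.37 ± 0.10, SD, n = 3). Set against Gapdh in the same arrays, the change of Pfkp was higher by 1.64 ± 0.24 and that of Hk2 by 1.40 ± 0.29 on the log2 scale (SD, n = 3).

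A limma fit with mouse as a block was run over all 10406 tested probes. Of the 5 genes, 2 passed adjusted p 0.05, Hk2 and Pfkp, both higher, where 1.34% of all probes passed, 1.11% as higher and 0.231% as lower. Hk2 was without overlap between the groups in the higher direction, as were 1.63% of probes, and Pfkm in the lower direction, as were 1.7% of probes. The same direction in every mouse with values was seen in 8.57% of probes for higher and 16.8% for lower. As the genes were chosen from this contrast, nothing is read from these counts. Neither gene passed without mouse 183 or without mouse 197, and only Pfkp did without mouse 438.

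The typical change depended on the brightness of the probes. The median log2 change of all tested probes was -0.14, and among the brightest 1041 probes, which include Hk2, Pfkm, Phkg1 and Gapdh, it was -0.17. Among probes of middle brightness it was -0.02, and in the dimmest 3 of 10 brightness classes it was -0.32, -0.32 and -0.22, further from 0 than among the brightest. The highest intensity of an array was lower on the stimulated side in every mouse, for instance 2362 against 3735 in mouse 440. Cyclic loess moved the median of all probes to -0.01. Relative to that median, Hk2 stood at 1.23, Pfkp at 1.30, Pfkm at -0.26, Phkg1 at -0.33 and Gapdh at -0.05 after loess, where the deposited scale gave 1.16, 1.35, -0.36, -0.37 and -0.23. After quantile normalization Pfkm and Gapdh were at -0.12 and -0.03 relative to the median. The part of brightness-dependent scaling in the lower values of Pfkm, Phkg1 and Gapdh was not tested further.

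**Figure D3:**
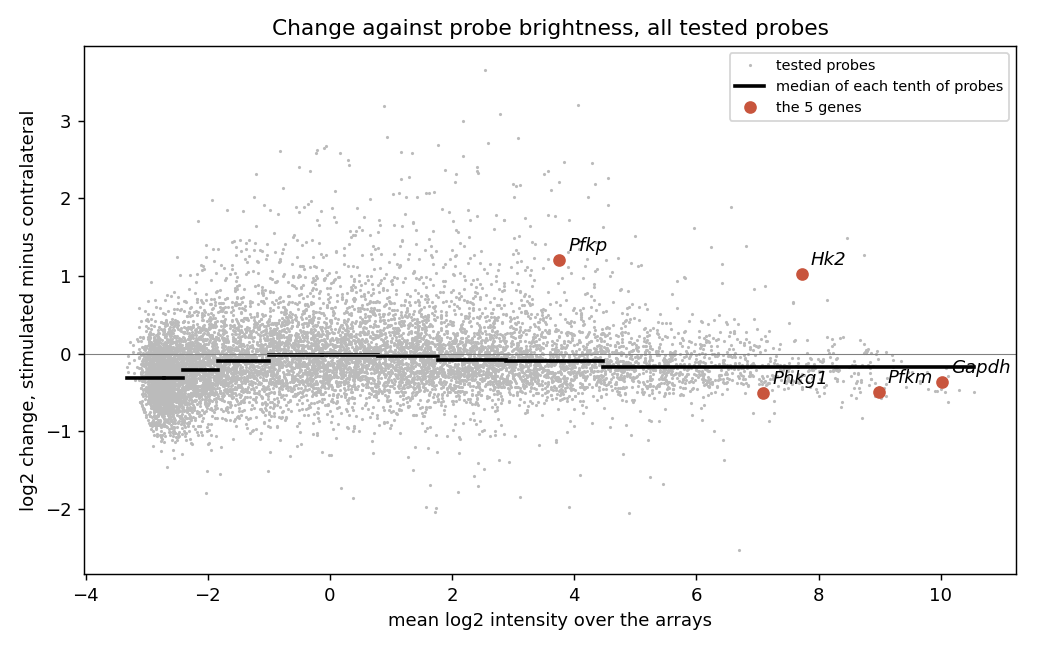
Log2 change (stimulated minus contralateral) of all 10406 tested probes against mean log2 intensity, with the 5 genes in red and the median change of each of 10 brightness classes as black steps. Hk2, at 1.03, lies above the median of its brightness class, -0.17, and Pfkm, Phkg1 and Gapdh lie below it.

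The rest of the glycolytic pathway showed no further change past the threshold. Of 29 listed enzymes of glycolysis 20 were tested, and of the 16 that are not among the 5 genes, 0 rose and 0 fell in limma at adjusted p 0.05, with 3 at unadjusted p under 0.05. A paired test without moderation passed 0 of all 10406 probes, so its 0 among these genes carries no information. It had 2 of them at unadjusted p under 0.05. Their median log2 change was -0.21 and their range -1.004 to 1.05, beside a median of -0.14 over all probes. Negative values were seen for 11 of the 16 on the deposited scale, for 9 after quantile normalization and for 8 after cyclic loess.

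Nearest to the threshold was Pgam1, the phosphoglycerate mutase of brain and most other tissues. It had a limma log2 change of 1.05 ± 0.24 (SE, adjusted p 0.083) and was higher in 4 of 4 mice, with changes of 0.68, 0.40, 1.29 and 1.81 in mice 183, 197, 438 and 440. The muscle mutase Pgam2, named after its values were seen, was at -0.23 ± 0.23 (adjusted p 0.617). Its value was 0.11 after quantile normalization and 0.004 after loess. Pgam1 exceeded Pgam2 within each mouse, by 0.50 to 2.83 on the log2 scale. Hk1, the hexokinase of most tissues, had a change of 0.91 ± 0.31 (adjusted p 0.223), made up of 1.28 and 1.90 in mice 197 and 440 and 0.24 and 0.22 in mice 183 and 438. This probe was dim, at means of 1.48 intensity units in stimulated and 0.745 in contralateral muscle. Other isoform pairs compared had differences of mixed sign between mice. Hk2 minus Hk1 ran from -0.92 to 1.09. The enolases Eno2 minus Eno3 ran from -0.85 to 0.43, and the lactate dehydrogenase subunits Ldhb minus Ldha from -0.39 to 1.27.

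Among the bright enzymes of the later steps, the lactate dehydrogenase subunit Ldha had a log2 change of -0.45 ± 0.21 (SE, adjusted p 0.340). Pgk1, the phosphoglycerate kinase of most tissues, was at -0.30 ± 0.16. The muscle enolase Eno3 was at -0.24 ± 0.15, and at 0.04 after quantile normalization and 0.005 after loess. Pgk1 and Eno3 are named after their values were seen. Pgk2, the testis kinase (-1.004 ± 0.41, adjusted p 0.296, n = 3), was at mean intensities of 0.072 in stimulated and 0.222 in contralateral muscle, the stimulated mean lying under the floor. The aldolase Aldoa had values in mice 183 and 197 only, with changes of -0.15 and -0.45, and was not tested.

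**Figure D4:**
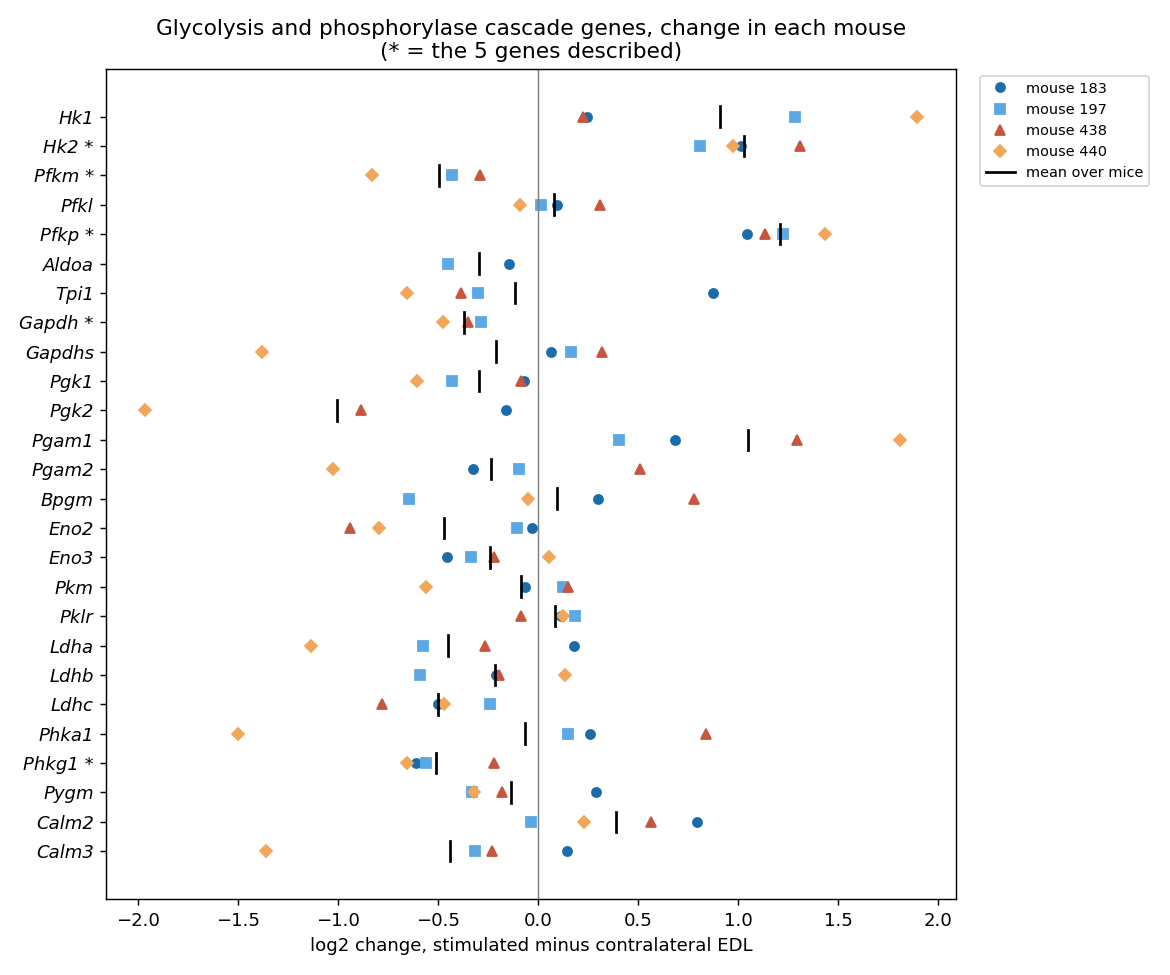
Log2 change (stimulated minus contralateral) of each measured gene of glycolysis and of the phosphorylase cascade, with 1 symbol per mouse and a black bar at the mean. Hk2, Pfkp, Hk1 and Pgam1 lie right of 0 in all 4 mice, and the Pgam1 and Hk1 values spread more widely between mice than those of Hk2 and Pfkp.

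Around Phkg1, 5 of the 14 listed genes of the glycogen phosphorylase cascade were tested. Of the other 4, 0 passed in limma, with 0 at unadjusted p under 0.05 in limma or in the paired test without moderation. Muscle glycogen phosphorylase Pygm, which phosphorylase kinase activates, had a log2 change of -0.14 ± 0.17 (SE). The regulatory subunit Phka1 was at -0.06 ± 0.35. Genes of calmodulin, the calcium-sensing subunit of the kinase, gave 0.39 ± 0.19 for Calm2 and -0.44 ± 0.24 for Calm3. The median of these 4 was -0.10. Of the 4 genes of glycogen synthesis tested, 0 passed, with 0 at unadjusted p under 0.05 in limma or in the paired test without moderation. These were glycogenin Gyg (0.04 ± 0.19), the kinase Gsk3b (0.11 ± 0.20), the glycogen-targeting phosphatase subunit Ppp1r3a (-0.25 ± 0.27) and the glycogen phosphatase laforin Epm2a (-0.14 ± 0.50).

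Upstream and downstream of the 5 genes, 1 of 6 genes of pyruvate and lactate handling passed. Pdk4, a kinase that restrains entry of pyruvate into the citric acid cycle, fell by 1.59 on the log2 scale (SE 0.27, limma adjusted p 0.024, lower in 4 of 4 mice). Its call was lost without mouse 183, 197 or 438 (adjusted p 0.137, 0.124 and 0.052), and the change lay between -1.87 and -1.25 over 15 alternatives. The dehydrogenase subunit Dld (-0.51 ± 0.18) and the monocarboxylate transporters Slc16a7 (-0.55 ± 0.26) and Slc16a3 (-0.24 ± 0.18) did not pass. Among 4 genes of glucose uptake 0 passed, with 0 at unadjusted p under 0.05 in either test, and the insulin- and contraction-responsive transporter Slc2a4 was at -0.49 ± 0.24. The others were at -0.24 ± 0.29 for Slc2a8, -0.16 ± 0.23 for Tbc1d1 and -0.16 ± 0.33 for Slc2a3, a probe below the floor on 3 arrays. Of the enzymes that set or oppose fructose bisphosphate, the muscle bisphosphatase Fbp2 was at -0.09 ± 0.20. Pfkfb2 (-0.30 ± 0.27) and Fbp1 (-0.47 ± 0.32) were dim, and 0 of these 3 passed, with 0 at unadjusted p under 0.05 in either test.

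Of 10 tested regulators known to act on glycolytic genes, 4 rose, 0 fell and 6 did not pass, and 7 had an unadjusted p under 0.05. Those that rose, in 4 of 4 mice each, were the coactivator Ppargc1a (5.18-fold higher, limma adjusted p 0.0035), the orphan nuclear receptor Nr4a1 (2.73-fold, 0.010), the hypoxia factor Hif1a (4.04-fold, 0.013) and Eya1 (2.42-fold, 0.034), a coactivator known for driving fast glycolytic genes in muscle. Without mouse 183 the calls of Nr4a1, Hif1a and Eya1 were lost (adjusted p 0.090, 0.110 and 0.190), and without mouse 197 those of Nr4a1 and Eya1 (0.059 and 0.151). Ppargc1a passed whichever mouse was left out. The Eya1 probe was dim, at means of 1.90 intensity units in stimulated and 0.775 in contralateral muscle. Foxo1, named after its values were seen, is among the 7 but was lower in 4 of 4 mice (-0.55 ± 0.19, SE) and did not pass. The median log2 change of the 10 was 1.13, against -0.14 over all probes. The study's description already names Eya1 and Ppargc1a, and the list was made with results known, so the count is no independent evidence.

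Patterns across the arrays were compared by the Pearson correlation of log2 intensity with 6244 other genes (6245 for Gapdh). The arrays share mice, and the correlation holds both the difference between muscles and that between mice, so it is given as a description. Over 8 arrays the genes most like Hk2 were the ubiquitin ligase Siah2 (r = 0.98), Ppargc1a (0.97) and the corepressor subunit Sap30 (0.97), each higher in stimulated muscle of 4 of 4 mice. Ppargc1a and Hk2 shared the order of stimulated muscles in part, with mouse 440 lowest for both. Most like Pfkp were the matrix proteoglycan Vcan, the endocytic adaptor Dab2 and Clic1 (r = 0.98 each), with log2 changes of 1.69, 1.60 and 1.08.

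Pfkm was followed most closely by the SUMO ligase Pias1 (r = 0.97), the alcohol dehydrogenase Adh1 (0.96) and the chemokine Ccl28 (0.96), all lower in 4 of 4 mice. For Phkg1 the genes were Cnot9, a subunit of the deadenylase complex CCR4-NOT (r = 0.98), the amino acid transporter Slc7a10 (0.98) and 2310057J18Rik (0.97). Over the 7 arrays with a value, Gapdh was matched most closely by the prostaglandin F receptor Ptgfr (0.99), the cullin Cul4b (0.98) and the peptide hormone Uts2 (0.98). Of these, Ccl28, Cnot9, Slc7a10, Ptgfr, Cul4b and Uts2 were dim, at contralateral means of 0.399 intensity units or less.

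Gapdh was also set beside other genes in use as references. Of 15 such genes 11 were tested and 0 passed in limma, with 3 at unadjusted p under 0.05 (1 in the paired test without moderation). Changes ran from -0.50 ± 0.16 (SE) for the ribosomal protein gene Rplp0 to 0.88 ± 0.27 for the cytoplasmic actin gene Actb, and Gapdh lay inside this range. In mouse 440 Actb was at 2.04, where the other 3 mice had 0.42 to 0.62. The 10 reference genes with values in every mouse averaged 0.23, -0.15, -0.14 and 0.21 in mice 183, 197, 438 and 440. With that average subtracted, the changes were 0.99 for Hk2, 1.17 for Pfkp, -0.54 for Pfkm, -0.55 for Phkg1 and -0.35 for Gapdh. The average includes the high Actb value of mouse 440. It also includes the glycolysis enzyme Pgk1 (-0.30), so it is not independent of the pathway.

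**Figure D5:**
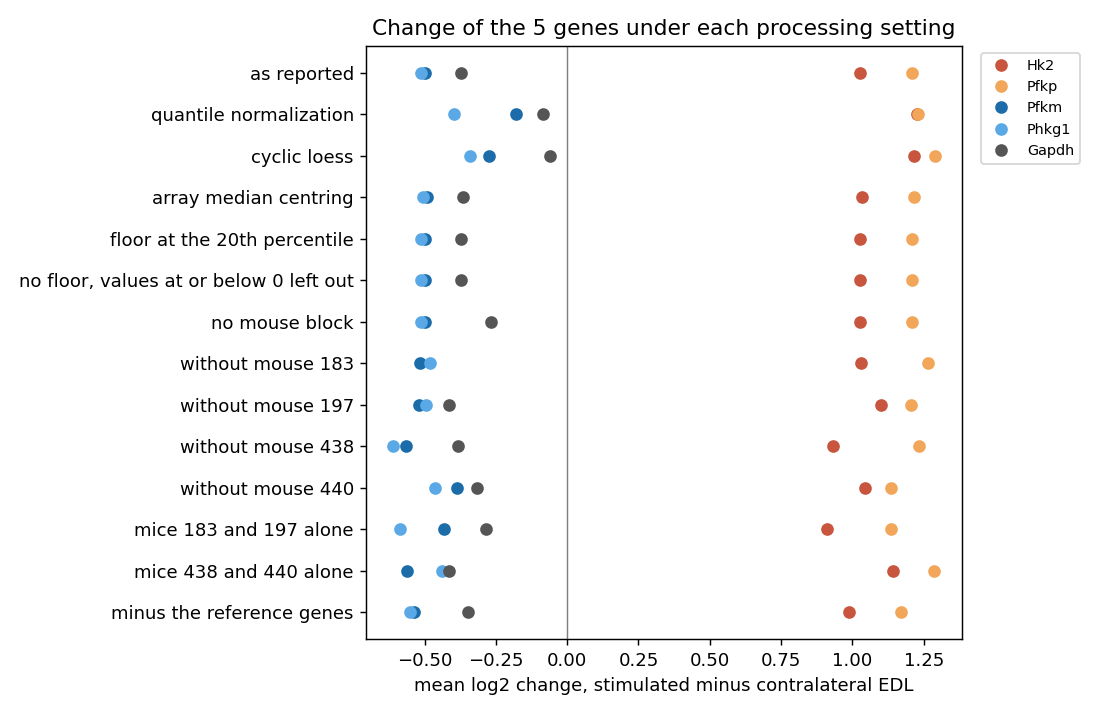
Mean log2 change (x axis) of the 5 genes as reported and under each alternative setting (rows), 1 colour per gene. Hk2 and Pfkp stay between 0.91 and 1.29, and Gapdh comes closest to 0, at -0.06 after cyclic loess.

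Pfkp is made by leukocytes, platelets, vessels and connective tissue as well as by fibres, so markers of these cells are given beside it. The summed intensity of 5 leukocyte markers ranged from 20.5 to 554 in stimulated and from 17.0 to 101 in contralateral muscle. By mouse the sums were 20.5, 63.3, 84.8 and 554 in stimulated muscle of mice 183, 197, 438 and 440. In their contralateral muscles they were 17.0, 46.4, 82.1 and 101, lower in all 4 mice and only narrowly so in mouse 438. The monocyte marker Cd14 had log2 changes of 0.93, 0.96, 1.11 and 3.57, and the neutrophil marker S100a8 0.28, 0.34, 0.04 and 2.41. Both were positive in every mouse, with mouse 440 highest, while the defining markers Ptprc and Itgam were below the floor on 2 arrays and 1 array. Ptprc, Itgam and the lysozyme Lyz2 had mean log2 changes of 0.10, -0.14 and -0.26, and were higher in 2, 1 and 1 of 4 mice. The sums thus follow mainly S100a8, at means of 136 in stimulated and 48.1 in contralateral muscle, and Cd14 (36.2 and 6.14). Of these 5 markers, out of 9 listed, 0 passed in limma (1 at unadjusted p under 0.05). Without mouse 440 the change of Pfkp was 1.13 in place of 1.21. Sums of 5 endothelial markers were 14.1 to 32.7 in stimulated and 16.5 to 30.0 in contralateral muscle, and those of 3 fibroblast markers 49.8 to 225 in stimulated and 51.0 to 226 in contralateral muscle. Of the 5 endothelial and 3 fibroblast markers 0 passed, with 1 of each at unadjusted p under 0.05, and the defining endothelial marker Cdh5 was below the floor on 2 arrays. The 5 platelet and red cell markers summed to 418 to 2399 in stimulated and 800.2 to 2698 in contralateral muscle, 0 passed and 0 had an unadjusted p under 0.05. These sums follow mainly the red cell gene Hba-a1, at means of 1242 in stimulated and 1329 in contralateral muscle. The platelet genes Pf4 and Ppbp had log2 changes of 0.02 ± 0.24 and -0.07 ± 0.51 (SE). The dim platelet genes Itga2b and Gp9 were at 0.06 ± 0.32 and 0.30 ± 0.51. All of these platelet genes were negative in mice 183 and 197 and of mixed sign in mouse 438. In mouse 440, where Pfkp had its largest change, Pf4, Ppbp, Itga2b and Gp9 were at 0.83, 2.11, 1.09 and 2.32. The Schwann cell marker Pmp22 was at 0.52 ± 0.23 and the adipocyte marker Fabp4 at 0.66 ± 0.17, and neither passed. Of 3 tested satellite cell markers 1 rose, Sdc4, a proteoglycan other cells also make (2.16-fold, limma adjusted p 0.016), and it did not pass without mouse 183, 197 or 438 (0.109, 0.089 and 0.059). The part of cells other than fibres in the Pfkp change was not tested.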

How the data were processed

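Biotin-labelled cRNA from each muscle's RNA was measured on a 1-colour CodeLink array, and 6 bacterial mRNAs were spiked in as normalization controls, per the labels' protocols. The deposited values are intensities on a linear scale, 1 for each probe of an array, as normalized by the authors. How they corrected background and scaled the arrays was not given in the sources used here. Of 10500 probes, 6373 have 1 gene symbol, 0 several and 4127 none. All 6373 were brought up to date through Entrez identifiers with the GRCm38.p6 gene table.

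Intensities below 0.0937, the 5th percentile of positive values, were raised to it before log2. Probes with both muscles of at least 3 mice were fitted with limma 3.58.1 (R 4.3.3), with mouse as a block, an intensity trend, Benjamini-Hochberg adjustment over 10406 probes and a two-sided adjusted p of 0.05. Errors marked SE are limma's moderated ones. A change is stimulated minus contralateral log2 intensity. The titles give the mouse and thus the pairing. Deviations from group means correlated at 0.59, 0.64, 0.58 and 0.52 within mice 183, 197, 438 and 440. The 4 pairs limit the precision. For a gene with several probes the brightest was to be used, but each gene of the lists has 1.

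The 5 genes and the gene lists were chosen with earlier results of these data known. Named genes are the 5, list genes past the threshold, up to 4 of each metabolic list by smallest p and the 3 most correlated genes for each of the 5. Genes named as the extremes of a list, as markers of a cell or fibre type or as other isoforms were picked after their values were seen. Other scalings, floors, variance models and left-out mice were tried as alternatives.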

Additional observations from a re-analysis of the deposited data

Results flagged for a closer look

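In 5 of 92 groups of 4 values examined, 1 muscle or mouse lay apart from the other 3 by more than Dixon's limit, a rate near the 1 in 20 that chance gives. None of these concerned Hk2, Pfkp, Pfkm or Phkg1, and Gapdh had 4 values in contralateral muscle only. Ppargc1a in the stimulated muscle of mouse 440 had a log2 intensity of 1.68, where the other 3 stimulated muscles had 3.43 to 3.74. Slc16a3 in the same muscle was at 3.44, against 4.07 to 4.15. Nr4a1 in the contralateral muscle of mouse 440 was at 4.17, against 3.01 to 3.20. Calm2 in the contralateral muscle of mouse 183 was at 5.00, against 5.32 to 5.35. Gyg had a log2 change of -0.48 in mouse 183, where the other 3 mice had 0.15 to 0.27.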

How the results depend on the processing

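None of the alternatives run reversed the direction of a change of the 5 genes. Little can be read from this: their values lie above both floors, dropping the block cannot alter a mean over complete pairs, and all mice with values share a sign for each gene, so leaving mice out could not reverse it. The rescalings could, and they moved Pfkm and Gapdh. Changes that differed by over 1 SD over mice from the reported value were Pfkm at -0.18 and Gapdh at -0.086 after quantile normalization, Gapdh at -0.061 after cyclic loess, and Gapdh at -0.27 with no replicate block, where the unpaired contralateral muscle of mouse 183 enters. With 1 mouse left out, Hk2 ranged from 0.93 to 1.10, Pfkp from 1.13 to 1.27, Pfkm from -0.57 to -0.38, Phkg1 from -0.61 to -0.46 and Gapdh from -0.41 to -0.32. The count of probes past the threshold was less stable. It was 139 as reported, 1 with no replicate block (477 at unadjusted p under 0.05), 0 with the floor at the 20th percentile (1296), 0 in the paired test without moderation (1208), 50 with no intensity trend, 0 in mice 183 and 197 alone (858) and 69 in mice 438 and 440 alone. Leaving out 1 mouse gave 7 to 194, the lowest without mouse 183, with 58 without mouse 197. Glycolysis genes past the threshold, 2 as reported, were only Hk2 and Pfkp, which were chosen from this contrast, so nothing is read from their count. It was 0 under each of these 6 settings, and 0 to 2 without 1 mouse (1 without mouse 438). The count for the phosphorylase cascade was 0 throughout. Read out after seeing the data, Ppargc1a passed in 11, Hif1a in 9, Nr4a1 in 8, Eya1 and Sdc4 in 6 and Pdk4 in 5 of 15 alternatives, with 0 reversals. The cause of the lost calls was not tested. Signal over background limits dim genes: 80 to 1387 values per array lay below the floor. The stimulated array had more of them than the contralateral one in every mouse. The counts were 1387 against 619, 708 against 579, 358 against 238 and 277 against 80 in mice 183, 197, 438 and 440. The part of this imbalance in the negative changes of dim probes was not tested.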
